A study of Homo sapiens with 12 samples.

Results

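The AP-1 and immediate-early factors described here are 10 genes, chosen by symbol from the 20289 genes of the count table: the FOS family (FOS, FOSB, FOSL1 and FOSL2), the JUN family (JUN, JUNB and JUND), and ATF3, EGR1 and IER2. All 10 were found and all 10 were among the 12821 genes tested. RNA was measured in U251, a human glioblastoma cell line, in 12 libraries from 4 groups of 3. In the order used below, the groups were cells with a lentiviral short hairpin against CD44 given temozolomide, cells with a control hairpin given temozolomide, cells with the CD44 hairpin given DMSO, and cells with the control hairpin given DMSO. Temozolomide, a DNA-methylating drug used against glioblastoma, was given at 50 µM, and every exposure to drug or to its solvent DMSO lasted 24 h. All 4 groups thus carry a lentiviral hairpin, the labels name 1 hairpin against CD44, and whether a group's 3 libraries are separate cultures is not stated. The p-values therefore measure the spread between these libraries, which may be technical.

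AP-1 is a dimer of a FOS family protein with a JUN family protein, or of JUN proteins with each other. It binds DNA at the sequence TGACTCA, and dimers that include ATF3 also bind the related cyclic AMP response element. Many of these genes are immediate-early genes: growth factors, serum or stress raise their RNA within minutes, through kinase cascades and serum response factor, without new protein synthesis, and the RNA then decays quickly. FOSL1 and FOSL2 respond more slowly and last longer, and FOSL1 is known for its link with the mesenchymal state of glioblastoma. CD44, the hairpin's target, is a cell-surface receptor for hyaluronan and is itself counted among AP-1 target genes.

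The promoters of 4 members are shown because these genes moved in opposite directions, EGR1 and JUNB upwards and FOSL2 and JUND downwards in the knockdown. The sequences are from RefSeq, GRCh38.p14, and run from 250 bases before to 50 bases after the annotated start, 5′ to 3′ on the gene's strand. Capitals mark matches on either strand to TGACG (the front part of the cyclic AMP response element), TGACGTCA (the whole element), TGACTCA (the AP-1 site), TATAAA, GCGNGGGCG (the EGR site) and the CArG box, to which serum response factor binds. The windows lie at chr5:138465229-138465528 (plus strand) for EGR1, chr19:12791236-12791535 (plus) for JUNB, chr2:28392608-28392907 (plus) for FOSL2 and chr19:18281573-18281872 (minus) for JUND.
EGR1: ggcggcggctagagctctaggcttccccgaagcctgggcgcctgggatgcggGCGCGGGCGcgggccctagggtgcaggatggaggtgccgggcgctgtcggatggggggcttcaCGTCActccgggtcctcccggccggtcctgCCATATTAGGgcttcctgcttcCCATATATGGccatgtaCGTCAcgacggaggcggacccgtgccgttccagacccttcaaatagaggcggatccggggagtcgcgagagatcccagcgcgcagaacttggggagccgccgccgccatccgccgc
JUNB: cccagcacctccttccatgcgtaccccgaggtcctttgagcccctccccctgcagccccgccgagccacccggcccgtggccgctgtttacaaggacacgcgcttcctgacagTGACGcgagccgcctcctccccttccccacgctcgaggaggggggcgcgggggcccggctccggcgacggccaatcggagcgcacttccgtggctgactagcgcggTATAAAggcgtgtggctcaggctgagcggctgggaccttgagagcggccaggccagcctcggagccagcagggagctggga
FOSL2: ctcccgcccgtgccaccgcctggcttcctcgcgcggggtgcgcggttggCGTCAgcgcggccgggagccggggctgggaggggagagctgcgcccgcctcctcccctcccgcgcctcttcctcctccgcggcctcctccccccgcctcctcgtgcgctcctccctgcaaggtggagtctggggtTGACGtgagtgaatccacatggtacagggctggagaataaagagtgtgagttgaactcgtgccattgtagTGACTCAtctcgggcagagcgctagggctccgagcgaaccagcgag
JUND: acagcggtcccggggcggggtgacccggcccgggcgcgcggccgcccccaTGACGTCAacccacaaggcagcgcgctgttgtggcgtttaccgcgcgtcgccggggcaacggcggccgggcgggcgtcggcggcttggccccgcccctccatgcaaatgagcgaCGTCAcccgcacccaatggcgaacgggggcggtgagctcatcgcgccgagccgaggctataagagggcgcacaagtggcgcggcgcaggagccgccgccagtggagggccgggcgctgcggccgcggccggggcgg

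Promoter sequences were matched for 9 members, all but FOSL1. TGACG was found in 8 of these 9 (all but ATF3), against 24.6% of 35116 promoters of the same length. It lay at -66 to -62 of the start in both EGR1, which rose with knockdown, and FOSL2, which fell, on opposite strands. The share over all promoters is not matched for GC content. The median GC content of all promoters was 58.7%, and the windows of EGR1, JUNB, FOSL2 and JUND had 68.7% to 77.0%. The whole element TGACGTCA, which contains TGACG on both strands, was found in JUND alone among the 9, and in 1.85% of all promoters. The AP-1 site TGACTCA was found in FOSL2 alone, 5 to 11 bases after the start, and in 4.95% of all promoters. The CArG box was found in EGR1 alone, with matches at -105 to -96 and at -83 to -74, and in 1.29% of all promoters. EGR1 also held GCGNGGGCG, the site that EGR1 protein itself binds, as did 9.43% of all promoters. TATAAA was found in FOS, FOSB, JUNB and 1 of the 2 windows of ATF3, and in 11.5% of all promoters, the ETS site CCGGAAG in IER2 and in 10.3%, and the NF-kB site GGGNNTTCC in none of the 9 and in 6.58%. A match is only a string of letters in this window.

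Library totals ran from 13506946 to 24757977 counts, so that a floor of 3 counts corresponds to 0.120 to 0.215 CPM, counts scaled to a common library total after TMM scaling. CD44 RNA checked the labels: it averaged 326 ± 6.60 CPM in knockdown cells under temozolomide and 821 ± 25.8 CPM in control cells under temozolomide, and 420 ± 1.03 CPM in knockdown cells and 1091 ± 43.3 CPM in control cells under DMSO (SD, n = 3 each). Of 14 glioblastoma and astrocyte markers, 10 exceeded 1 CPM in every library, GFAP averaged 0.417 to 1.27 CPM by group, and OLIG2 and CHI3L1 each had counts in 1 of the 12 libraries. Their summed level was 5507 to 5759 CPM in knockdown and 5332 to 5615 CPM in control cells under temozolomide, and 7149 to 7283 CPM in knockdown and 7221 to 7613 CPM in control cells under DMSO. The 8 leukocyte markers summed to 24.9 to 27.5 CPM in knockdown and 13.9 to 16.9 CPM in control cells under temozolomide, and to 23.5 to 26.5 and 16.0 to 17.7 CPM in knockdown and control cells under DMSO; nearly all of this was CD68, and CD3E and AIF1 were at 0 throughout. The 9 endothelial and epithelial markers summed to 302 to 353, 442 to 470, 419 to 449 and 579 to 590 CPM in the same 4 groups, mostly KRT8 and KRT18, while EPCAM and CDH1 had at most 3 and 2 counts in any library. The endothelial marker CDH5 averaged 12.6, 21.6, 27.7 and 44.1 CPM in these groups, and KDR 1.52, 0.186, 1.81 and 0.169 CPM. PECAM1 averaged 0.146 to 0.710 CPM by group, VWF 0.235 to 0.337 CPM and KRT19 1.51 to 3.62 CPM. For each library, the median centred log2 level of genes under 40% GC was subtracted from that of genes over 60% GC. The result was -0.12 to 0.08 in knockdown and -0.13 to 0.04 in control cells under temozolomide. Under DMSO it was -0.08 to -0.03 in knockdown and 0.07 to 0.22 in control cells. A correction for GC content left all member calls as given below except that of IER2 with temozolomide in control cells. In bulk RNA, fewer cells of a type and less RNA per cell cannot be told apart.

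CD44 knockdown under temozolomide went with higher RNA of 6 members (FOSL1, ATF3, EGR1, JUNB, JUN and IER2) and lower RNA of 2 (FOSL2 and JUND), while FOS and FOSB did not pass the test. Calls rest on p-values of the edgeR quasi-likelihood fit, adjusted after Benjamini and Hochberg over all genes tested, at a threshold of 0.05, and by that rule 22.0% of all genes were higher and 20.3% lower. Under DMSO, knockdown cells had 5 members higher (the same without IER2) and 3 lower (FOSB, FOSL2 and JUND), against 21.1% and 21.4% of all genes. The comparisons under the 2 treatments share no library: 1917 genes were called higher in both, which is 67.9% of those higher under temozolomide and 70.7% of those higher under DMSO.

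With temozolomide, knockdown cells had 2 members higher (EGR1 and ATF3) and 2 lower (FOSL2 and JUN), against 9.05% and 13.2% of all genes. Control cells had the same 2 higher and 4 lower (FOSL1, JUN, FOSL2 and IER2), against 11.7% and 15.8%. Here 522 genes were called higher in both kinds of cell, 45.0% of those in knockdown cells and 34.7% of those in control cells. Knockdown with temozolomide against neither gave 4 members higher (EGR1, ATF3, FOSL1 and JUNB) and 2 lower (FOSL2 and JUND), against 25.4% and 24.5% of all genes. In the test of the difference between the temozolomide responses, which is also the difference between the knockdown effects, 0 members were called in either direction, against 0.437% and 0.616% of all genes (56 higher and 79 lower). For that difference DESeq2 gave no adjusted p for 8 of the members and called neither FOSL2 nor JUN. With library totals in place of TMM scaling, more genes were called higher and fewer lower: 2533 and 1078 with temozolomide in knockdown cells, 2870 and 1295 in control cells, 3387 and 2167 with knockdown under DMSO, and 5053 and 2039 with both against neither, against 1160 and 1694, 1505 and 2024, 2710 and 2748, and 3255 and 3143 with TMM. Among the members that scaling changed the calls of IER2 in control cells and JUNB in knockdown cells with temozolomide, and no others.

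**Figure D1:**
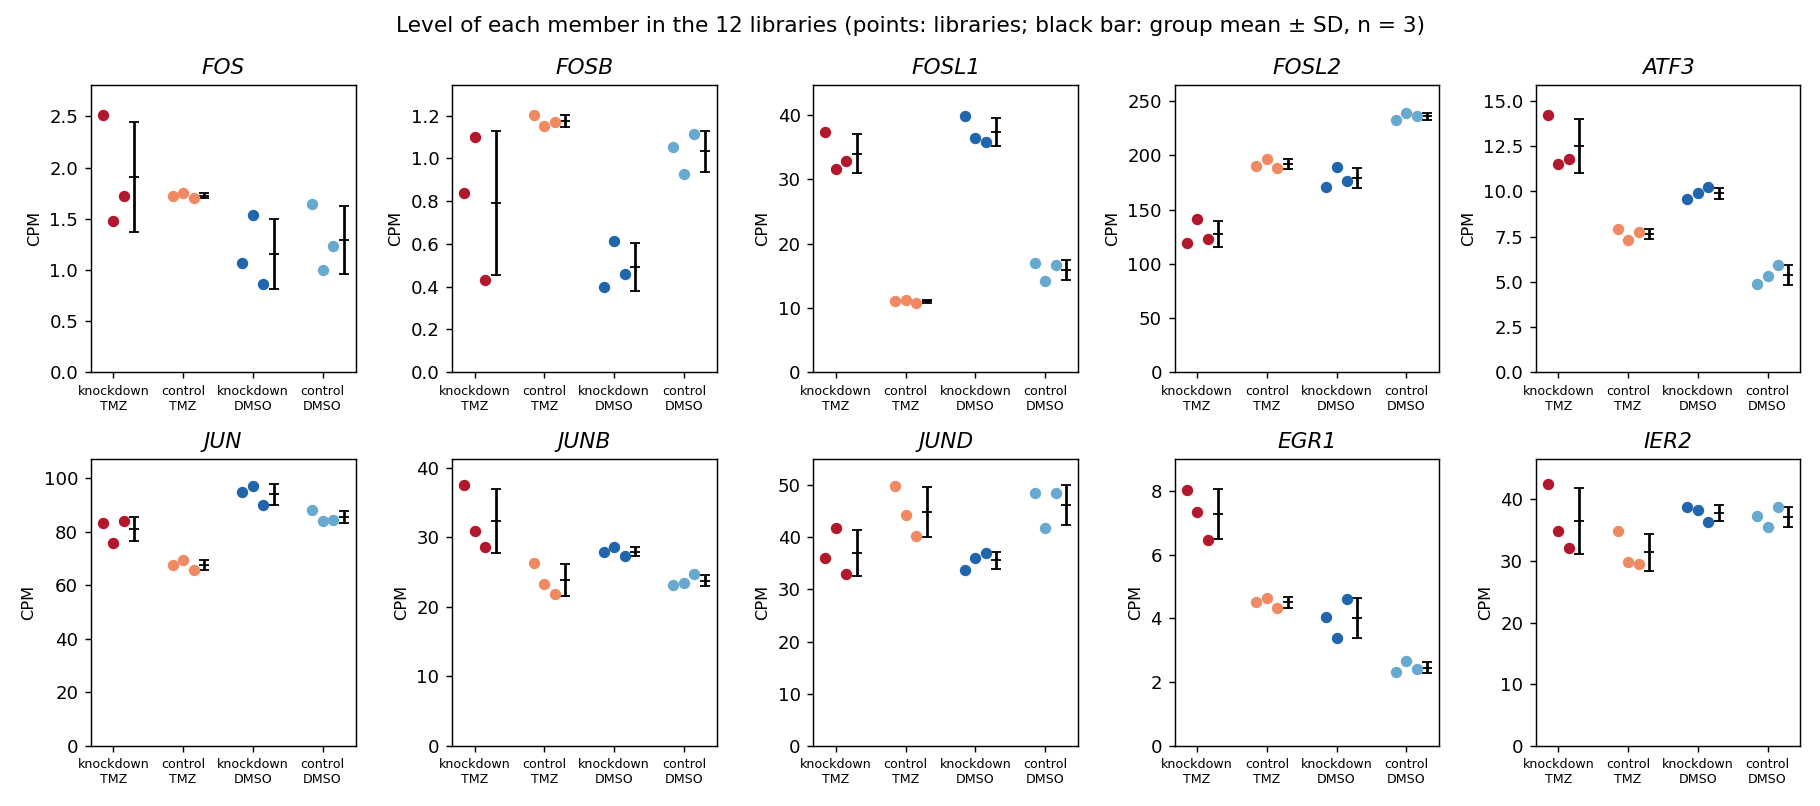
CPM of each of the 10 members in the 12 libraries, from knockdown cells with temozolomide on the left to control cells with DMSO on the right of each panel (points are libraries, bars are group means ± SD, n = 3; each panel has its own linear axis from 0). FOSL1 separates the knockdown libraries (31.7 to 39.9 CPM) from the control libraries (10.7 to 16.9 CPM), while EGR1 is highest with both knockdown and temozolomide and lowest with neither.

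**Figure D2:**
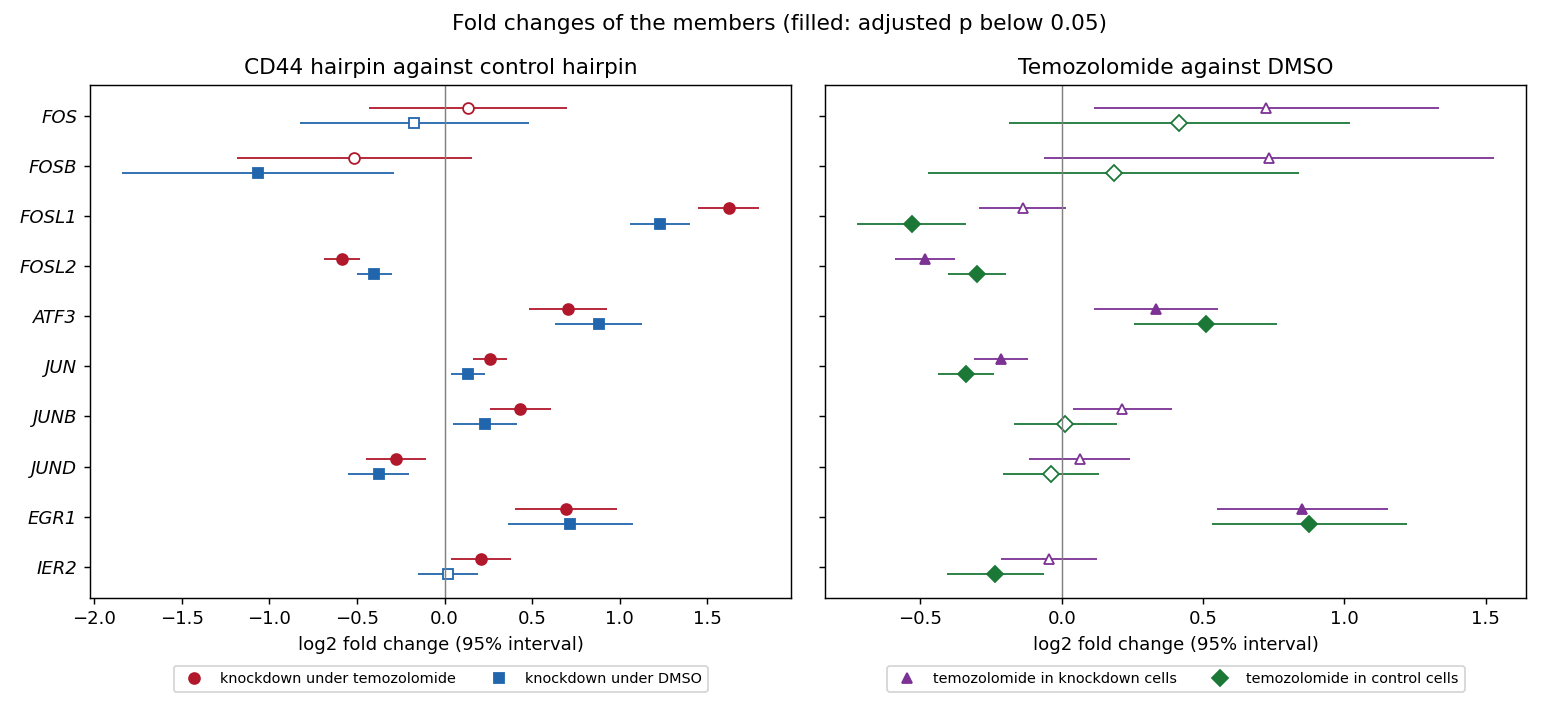
Log2 fold changes of the members with 95% intervals from the edgeR fit, knockdown against control on the left and temozolomide against DMSO on the right; filled symbols mark an adjusted p below 0.05. With knockdown under DMSO, FOSL1 and ATF3 lie furthest to the right among the called members and FOSB furthest to the left, and EGR1 lies furthest to the right among the called members with temozolomide in both kinds of cell.

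FOSL1 (Fra-1; chr11:65892049-65900573, minus strand, GRCh38), a FOS protein without the C-terminal activation domain of FOS, had the largest knockdown response of the 10 genes. It had 37.4, 31.7 and 32.8 CPM in knockdown cells under temozolomide, against 11.1, 11.2 and 10.7 CPM in control cells under temozolomide. Under DMSO it had 39.9, 36.4 and 35.8 CPM in knockdown cells, against 16.9, 14.1 and 16.6 CPM in control cells. All 6 knockdown libraries lay above all 6 control libraries. Its log2 fold change with knockdown was 1.62 ± 0.08 (SE) under temozolomide (edgeR adjusted p = 2.88e-12) and 1.23 ± 0.08 under DMSO (edgeR adjusted p = 1.33e-10). With temozolomide the log2 change of FOSL1 was -0.14 ± 0.07 in knockdown cells, with overlapping groups (edgeR adjusted p = 0.194). In control cells FOSL1 fell by 0.53 on the log2 scale (SE 0.09, edgeR adjusted p = 0.000232), and the groups did not overlap. The difference between these responses was 0.39 on the log2 scale with a 95% interval from 0.15 to 0.64, and did not pass the test over all genes (edgeR adjusted p = 0.0921). Without control DMSO replicate 2, which had the lowest FOSL1 level of its group, the difference was 0.46 and passed (edgeR adjusted p = 0.0487). The adjusted p of that difference ran from 0.0487 to 0.344 over all alternatives.

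FOSL2 (Fra-2; chr2:28392448-28417312, plus strand), the partner of FOSL1 in the slower part of the family, moved the other way and was lower in every comparison of 2 groups. It had 119, 141 and 122 CPM in knockdown cells under temozolomide, against 190.0, 197 and 188 CPM in control cells under temozolomide. The DMSO libraries had 171, 189 and 176 CPM in knockdown cells, against 232, 239 and 236 CPM in control cells. The knockdown cells were below the control cells under either treatment, and temozolomide libraries were below DMSO libraries in either kind of cell. FOSL2 fell by 0.59 on the log2 scale with knockdown under temozolomide (SE 0.05, edgeR adjusted p = 7.52e-09) and by 0.40 under DMSO (SE 0.05, edgeR adjusted p = 1.22e-06). With temozolomide it fell by 0.48 in knockdown cells (SE 0.05, edgeR adjusted p = 5.50e-07) and by 0.30 in control cells (SE 0.05, edgeR adjusted p = 0.000105). With both against neither it fell by 0.88 (SE 0.05, edgeR adjusted p = 6.47e-12). The difference between the temozolomide responses was -0.19 with a 95% interval from -0.33 to -0.04 (edgeR adjusted p = 0.173); without knockdown temozolomide replicate 2, which had the highest FOSL2 level of its group, it was -0.27 and passed (edgeR adjusted p = 0.0419). The adjusted p ran from 0.0419 to 0.388 over all alternatives. An antisense gene, FLJ31356, overlaps FOSL2 in the annotation, and whether the counting used strand is not given in the sources used here.

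FOS (chr14:75278774-75282230, plus strand) and FOSB (chr19:45467995-45475179, plus strand), the fast and short-lived members, had few counts. FOS had 42, 31 and 24 counts in knockdown and 43, 29 and 29 in control cells under temozolomide, and 16, 25 and 17 in knockdown and 25, 15 and 21 in control cells under DMSO. In CPM this is 0.86 to 2.51 over all 12 libraries, and the knockdown and control groups overlapped under either treatment. The log2 fold change of FOS with knockdown was 0.13 ± 0.27 under temozolomide (edgeR adjusted p = 0.726) and -0.17 ± 0.31 under DMSO (edgeR adjusted p = 0.692); with temozolomide it was 0.72 ± 0.29 in knockdown cells (edgeR adjusted p = 0.0823) and 0.42 ± 0.29 in control cells (edgeR adjusted p = 0.312). The authors' FPKM of FOS under DMSO was 0.60, 0.72 and 0.41 in knockdown cells, against 1.23, 2.14 and 1.83 in control cells, and a limma fit to FPKM called FOS lower there. The length that relates FOS counts to FPKM ranged from 0.447 to 2.11 kb between libraries, so the FPKM difference is not matched by a difference in counts. Limma on log2(FPKM + 0.1) also called FOS higher with temozolomide in knockdown cells (adjusted p = 0.0379), and with a pseudocount of 1 it did not (adjusted p = 0.0564).

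FOSB had 14, 23 and 6 counts in knockdown and 30, 19 and 20 in control cells under temozolomide, and 6, 10 and 9 in knockdown and 16, 14 and 19 in control cells under DMSO. The knockdown libraries were below the control libraries under either treatment, without overlap in CPM. The log2 fold change was -0.52 ± 0.32 under temozolomide (edgeR adjusted p = 0.213) and -1.07 ± 0.37 under DMSO, which passed the test (edgeR adjusted p = 0.0261). This call was lost without knockdown DMSO replicate 1 or 3 and without control DMSO replicate 1 or 3 (log2 fold change -1.05 to -0.96, edgeR adjusted p up to 0.0850), with DESeq2 and in the FPKM fits, and its adjusted p over all alternatives ran from 0.0186 to 0.304. ERCC1 lies over FOSB on the opposite strand and is in the count table.

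ATF3 (chr1:212565334-212620777, plus strand), a stress-induced bZIP factor that represses as a homodimer and pairs with JUN proteins, was higher with knockdown and with temozolomide. It had 14.2, 11.5 and 11.8 CPM in knockdown cells under temozolomide, against 7.90, 7.32 and 7.73 CPM in control cells under temozolomide. In DMSO it had 9.59, 9.89 and 10.2 CPM in knockdown cells, against 4.87, 5.31 and 5.93 CPM in control cells. None of the 4 groups overlapped, and the order from low to high was control DMSO, control temozolomide, knockdown DMSO and knockdown temozolomide. With knockdown the log2 fold change was 0.70 ± 0.11 under temozolomide (edgeR adjusted p = 1.77e-05) and 0.88 ± 0.12 under DMSO (edgeR adjusted p = 4.22e-06). With temozolomide it was 0.33 ± 0.11 in knockdown cells (edgeR adjusted p = 0.0267) and 0.51 ± 0.12 in control cells (edgeR adjusted p = 0.00334). The call in knockdown cells was lost without knockdown temozolomide replicate 1 and without each of the 3 knockdown DMSO libraries (log2 fold change 0.23 to 0.35, edgeR adjusted p up to 0.156), with DESeq2 and in the FPKM fits, with adjusted p from 0.00800 to 0.156 over all alternatives. With both against neither it was 1.21 ± 0.12 (edgeR adjusted p = 2.22e-08), and the difference between responses was -0.18 with a 95% interval from -0.51 to 0.16 (edgeR adjusted p = 0.617).

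JUN (chr1:58780788-58784327, minus strand), the main DNA-binding partner in AP-1, changed little in size. It had 83.3, 75.9 and 84.1 CPM in knockdown cells under temozolomide, against 67.8, 69.6 and 65.6 CPM in control cells under temozolomide. The DMSO values were 94.8, 97.3 and 89.8 CPM in knockdown cells, against 88.1, 84.1 and 84.4 CPM in control cells. JUN was thus slightly higher in knockdown cells and lower with temozolomide, with no overlap in any of these 4 comparisons. With knockdown the log2 fold change was 0.26 ± 0.05 under temozolomide (edgeR adjusted p = 0.000147) and 0.13 ± 0.05 under DMSO (edgeR adjusted p = 0.0233). The call under DMSO was lost without knockdown DMSO replicate 1 or 2 and without control DMSO replicate 2 or 3 (log2 fold change 0.11 to 0.13, edgeR adjusted p up to 0.101; over all alternatives 0.00305 to 0.101). With temozolomide JUN fell by 0.21 in knockdown cells (SE 0.05, edgeR adjusted p = 0.00199; not called in the FPKM fits) and by 0.34 in control cells (SE 0.05, edgeR adjusted p = 1.87e-05). With both against neither it was -0.08 ± 0.05 and did not pass (edgeR adjusted p = 0.165).

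JUNB (chr19:12791496-12793315, plus strand), which can restrain JUN in some cell types, had 37.5, 31.0 and 28.6 CPM in knockdown cells under temozolomide, against 26.3, 23.3 and 21.9 CPM in control cells under temozolomide. With DMSO the levels were 27.96, 28.6 and 27.3 CPM in knockdown cells, against 23.2, 23.4 and 24.7 CPM in control cells. The knockdown libraries were above the control libraries under either treatment. The log2 fold change was 0.43 ± 0.08 under temozolomide (edgeR adjusted p = 0.000276) and 0.23 ± 0.09 under DMSO (edgeR adjusted p = 0.0378). The call under DMSO was lost without any of the 3 knockdown DMSO libraries and without control DMSO replicate 1 or 2 (log2 fold change 0.22 to 0.25, edgeR adjusted p up to 0.101; over all alternatives 0.000254 to 0.101). With temozolomide the change was 0.21 ± 0.08 in knockdown cells (edgeR adjusted p = 0.0711) and 0.01 ± 0.09 in control cells (edgeR adjusted p = 0.930); the first became a call without knockdown temozolomide replicate 3 (log2 fold change 0.29, edgeR adjusted p = 0.0233), with library totals alone and with no low-count filter, with adjusted p from 0.0187 to 0.429 over all alternatives. HOOK2 lies over JUNB on the opposite strand and is in the count table.

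JUND (chr19:18279760-18281622, minus strand), the JUN protein that most cells make without stimulation, was lower in knockdown cells. It had 36.1, 41.8 and 33.02 CPM in knockdown cells under temozolomide, against 49.9, 44.3 and 40.3 CPM in control cells under temozolomide, and these groups overlapped. In DMSO the levels were 33.8, 36.0 and 37.0 CPM in knockdown cells, against 48.6, 41.8 and 48.4 CPM in control cells, without overlap. JUND fell by 0.28 on the log2 scale under temozolomide (SE 0.08, edgeR adjusted p = 0.0101) and by 0.38 under DMSO (SE 0.08, edgeR adjusted p = 0.00107). The call under temozolomide was lost without knockdown temozolomide replicate 3 or control temozolomide replicate 1 (log2 fold change -0.21 to -0.18, edgeR adjusted p up to 0.102; over all alternatives 0.000174 to 0.102). With temozolomide its log2 change was 0.06 ± 0.09 in knockdown cells (edgeR adjusted p = 0.643) and -0.04 ± 0.08 in control cells (edgeR adjusted p = 0.776).

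EGR1 (chr5:138465490-138469315, plus strand), a zinc-finger immediate-early factor induced by growth factor signalling and by stress, was higher with knockdown and with temozolomide. It had 8.02, 7.36 and 6.46 CPM in knockdown cells under temozolomide, against 4.53, 4.66 and 4.33 CPM in control cells under temozolomide. Under DMSO it had 4.06, 3.38 and 4.63 CPM in knockdown cells, against 2.30, 2.65 and 2.41 CPM in control cells. The counts behind these levels were low, 90 to 154 in knockdown and 74 to 113 in control cells under temozolomide, and 55 to 91 in knockdown and 35 to 41 in control cells under DMSO. The knockdown and control groups did not overlap under either treatment, whereas knockdown DMSO and control temozolomide did. With knockdown the log2 fold change was 0.70 ± 0.14 under temozolomide (edgeR adjusted p = 0.000408) and 0.72 ± 0.17 under DMSO (edgeR adjusted p = 0.00180). With temozolomide it was 0.85 ± 0.14 in knockdown cells (edgeR adjusted p = 0.000207) and 0.88 ± 0.17 in control cells (edgeR adjusted p = 0.000474). The difference between these responses was -0.02 with a 95% interval from -0.47 to 0.42 (edgeR adjusted p = 0.970). With both against neither EGR1 was 2.97-fold higher (log2 fold change 1.57 ± 0.16, edgeR adjusted p = 4.98e-08), the largest such change of the 10 genes.

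IER2 (chr19:13150415-13154908, plus strand) is a small nuclear protein of the immediate-early class. It had 42.4, 34.9 and 32.1 CPM in knockdown cells under temozolomide, against 34.8, 29.9 and 29.5 CPM in control cells under temozolomide. Under DMSO it had 38.7, 38.3 and 36.4 CPM in knockdown cells, against 37.2, 35.5 and 38.8 CPM in control cells. The knockdown and control groups overlapped under either treatment. The log2 fold change with knockdown was 0.21 ± 0.08 under temozolomide (edgeR adjusted p = 0.0452) and 0.02 ± 0.08 under DMSO (edgeR adjusted p = 0.862). The call under temozolomide was lost in 16 of 25 alternatives, among them DESeq2 and the omission of knockdown temozolomide replicate 1, control temozolomide replicate 2 or 3, or any of the 6 DMSO libraries (log2 fold change 0.09 to 0.21, edgeR adjusted p up to 0.385; over all alternatives 0.00988 to 0.385). With temozolomide IER2 had a log2 change of -0.05 ± 0.08 in knockdown cells (edgeR adjusted p = 0.744) and fell by 0.23 in control cells (SE 0.08, edgeR adjusted p = 0.0395). The call in control cells was lost in 12 of 25 alternatives, among them library totals alone, the GC correction and the omission of control temozolomide replicate 2 or 3, knockdown DMSO replicate 2, or control DMSO replicate 1 or 3 (log2 fold change -0.23 to -0.19, edgeR adjusted p up to 0.152; over all alternatives 0.00999 to 0.316). IER2 has an antisense neighbour, AC011446.2, in the annotation.

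Levels were compared between genes per length, in the authors' FPKM (fragment counts divided by transcript length and by the library total). In knockdown cells under temozolomide the order from high to low was JUN (27.6 ± 1.62), JUND (25.2 ± 3.71), FOSL1 (22.8 ± 2.37), FOSL2 (19.9 ± 1.97), JUNB (18.3 ± 2.65), IER2 (18.3 ± 3.46), ATF3 (11.4 ± 1.58), EGR1 (2.40 ± 0.27), FOS (1.14 ± 0.39) and FOSB (0.27 ± 0.12), in mean FPKM ± SD (n = 3), and neighbours overlapped from JUN down to IER2. In control cells under temozolomide the order was JUND (34.2 ± 3.83), FOSL2 (29.5 ± 0.49), JUN (22.5 ± 0.76), IER2 (14.99 ± 1.21), JUNB (13.2 ± 1.23), FOSL1 (7.33 ± 0.30), ATF3 (6.25 ± 0.97), EGR1 (1.45 ± 0.05), FOS (1.09 ± 0.13) and FOSB (0.37 ± 0.04), where IER2 and JUNB alone overlapped. In knockdown cells under DMSO it was JUN (30.6 ± 1.25), FOSL2 (26.9 ± 1.05), JUND (25.6 ± 1.62), FOSL1 (24.0 ± 1.29), IER2 (17.8 ± 0.87), JUNB (15.1 ± 0.31), ATF3 (8.37 ± 0.31), EGR1 (1.28 ± 0.20), FOS (0.58 ± 0.16) and FOSB (0.18 ± 0.02), with overlaps of FOSL2 with JUND and of JUND with FOSL1. In control cells under DMSO it was FOSL2 (34.4 ± 0.43), JUND (32.9 ± 1.45), JUN (27.2 ± 0.75), IER2 (17.3 ± 1.21), JUNB (12.5 ± 0.44), FOSL1 (10.1 ± 0.99), ATF3 (4.06 ± 0.74), FOS (1.73 ± 0.46), EGR1 (0.75 ± 0.05) and FOSB (0.27 ± 0.03), with no overlap between neighbours. FOSL1 thus stood among the 4 highest members in the knockdown groups and was 6th in the control groups. The FPKM of FOS, FOSB and ATF3 is uncertain, since the length relating their counts to FPKM differed 4.72-, 1.90- and 1.90-fold between libraries.

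Within the FOS family, FOSL1 and FOSL2 held nearly all of the summed FPKM, and their shares differed between knockdown and control. FOSL1 held 51.6% ± 3.98 of the family in knockdown and 19.2% ± 0.363 in control cells under temozolomide, and 46.5% ± 2.12 in knockdown and 21.6% ± 2.02 in control cells under DMSO (SD, n = 3 each). The lowest knockdown library stood at 44.8% and the highest control library at 23.3%. FOSL2 held 45.2% ± 4.74 in knockdown and 77.0% ± 0.493 in control cells under temozolomide, and 52.0% ± 2.12 in knockdown and 74.1% ± 1.20 in control cells under DMSO. The family sum itself differed less: 41.8 to 45.9 FPKM in knockdown and 37.6 to 39.2 FPKM in control cells under temozolomide, and 50.5 to 52.3 FPKM in knockdown and 46.1 to 47.2 FPKM in control cells under DMSO. In the JUN family, JUND held 35.4% ± 4.32 in knockdown and 48.9% ± 2.12 in control cells under temozolomide, and 35.8% ± 2.16 in knockdown and 45.3% ± 0.762 in control cells under DMSO. JUN held 38.9% ± 3.65, 32.4% ± 2.33, 42.9% ± 1.70 and 37.5% ± 0.865 in the same 4 groups. The JUN family sum was 66.8 to 74.0 FPKM in knockdown and 66.0 to 75.6 FPKM in control cells under temozolomide, and 70.8 to 72.5 FPKM in knockdown and 70.4 to 74.2 FPKM in control cells under DMSO, all overlapping between knockdown and control. These shares are descriptions with no test of their own.

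**Figure D3:**
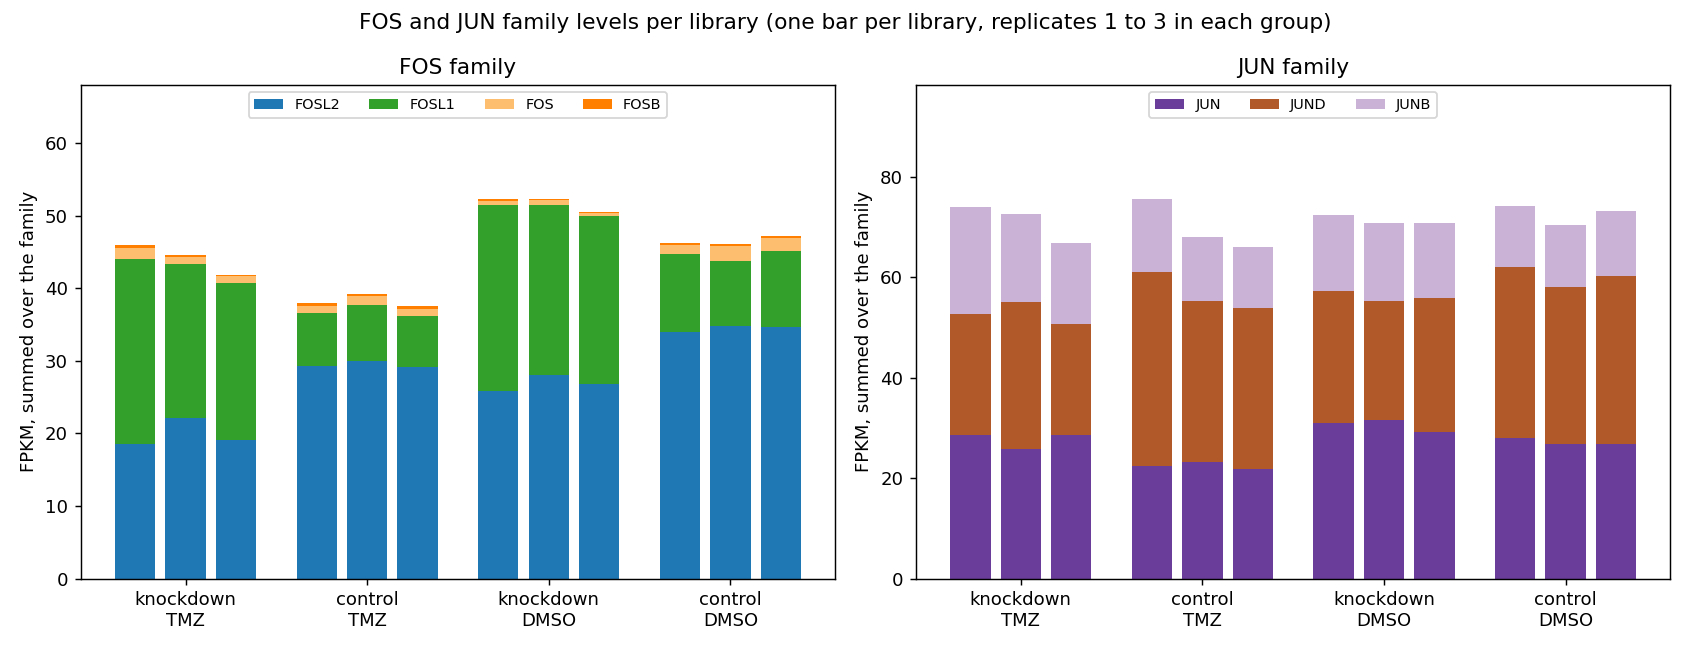
Stacked FPKM of the FOS family (left) and the JUN family (right) in each of the 12 libraries, from knockdown with temozolomide to control with DMSO. FOSL1 fills 44.8% to 55.5% of the FOS family bar in the knockdown libraries and 18.8% to 23.3% in the control libraries, while the JUN family bars reach similar heights in all groups.

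Known target genes of AP-1 were counted from a list of 50, of which 40 were tested. With knockdown 25 of the 40 were called higher and 7 lower under temozolomide (median log2 fold change 0.49, against 0.01 over all genes tested), and also 25 higher and 7 lower under DMSO (median 0.39, against 0.00). These are 62.5% and 17.5% of the list in either comparison, beside 22.0% and 20.3% of all genes under temozolomide and 21.1% and 21.4% under DMSO. NT5E, the ectonucleotidase CD73, had log2 fold changes of 2.19 ± 0.09 and 2.00 ± 0.09 under temozolomide and DMSO (edgeR adjusted p = 7.92e-14 and 3.12e-13). CXCL8, the chemokine interleukin-8, averaged 5.08 ± 0.67 CPM in knockdown and 1.57 ± 0.13 CPM in control cells under DMSO (SD, n = 3 each; log2 fold change 1.70 ± 0.24, edgeR adjusted p = 6.38e-06). Among the 7 that fell were CD44 itself, the hairpin's target, and the metallothionein MT1X, by 0.54 under temozolomide and by 0.56 under DMSO on the log2 scale (SE 0.11 each, edgeR adjusted p = 0.000361 and 0.000305).

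With temozolomide the same list leaned the other way. In knockdown cells 4 of 40 were higher and 18 lower (median log2 fold change -0.21, against 0.00 over all genes tested), and in control cells 4 were higher and 24 lower (median -0.34, against 0.00). The shares lower were 45% and 60% of the list in knockdown and control cells, beside 13.2% and 15.8% of all genes. CCL2, a monocyte chemokine, averaged 11.1 ± 0.67 CPM with temozolomide and 30.6 ± 0.95 CPM with DMSO in knockdown cells, and 6.50 ± 1.3 CPM with temozolomide and 15.8 ± 1.6 CPM with DMSO in control cells. It fell by 1.46 on the log2 scale in knockdown cells (SE 0.10, edgeR adjusted p = 9.07e-10) and by 1.27 in control cells (SE 0.11, edgeR adjusted p = 5.53e-08). The gap junction gene GJA1 fell by 0.85 in knockdown cells (SE 0.05, edgeR adjusted p = 8.51e-11). MT2A, a metallothionein, and the growth factor TGFB1 rose in knockdown cells (0.35 ± 0.06 and 0.43 ± 0.06, edgeR adjusted p = 0.000196 and 5.47e-05), and the matrix metalloproteinase MMP14 rose in control cells (0.24 ± 0.06, edgeR adjusted p = 0.00260). MT2A was also called higher in control cells (log2 fold change 0.18), and MMP14 in knockdown cells (0.21). Those calls were lost in 6 and 2 of 25 alternatives. In the difference between the responses 2 were called higher, UPP1 (0.59 ± 0.13, edgeR adjusted p = 0.0377) and HMGA1 (0.39 ± 0.07, edgeR adjusted p = 0.0165), and 1 lower, GJA1 (-0.35 ± 0.07, edgeR adjusted p = 0.0189). All 3 calls were lost with the GC correction, in the FPKM fits, and without control temozolomide replicate 2 or 3 or control DMSO replicate 1; UPP1 was also lost without knockdown temozolomide replicate 1 or knockdown DMSO replicate 1 or 3, HMGA1 without knockdown DMSO replicate 3, and GJA1 without knockdown DMSO replicate 1. Without these libraries the differences were 0.48 to 0.63 for UPP1, 0.34 to 0.39 for HMGA1 and -0.36 to -0.32 for GJA1, and over all alternatives the adjusted p ran up to 0.195, 0.205 and 0.195. Which dimer, if any, acts on these genes was not measured.

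Other immediate-early genes, a list of 40 with 36 tested, had 18 called higher and 7 lower with knockdown under temozolomide (median log2 fold change 0.20) and 15 higher and 9 lower under DMSO (median 0.16), which is 50% and 19.4%, and 41.7% and 25%, of those tested. Over all genes the shares were 22.0% and 20.3%, and 21.1% and 21.4%, with medians of 0.0083 and -0.0014. CCN2, a matricellular protein gene, averaged 106 ± 13 CPM in knockdown and 38.1 ± 3.2 CPM in control cells under temozolomide, and 126 ± 6.1 CPM in knockdown and 45.8 ± 3.7 CPM in control cells under DMSO, with a log2 fold change of 1.47 ± 0.08 under either treatment (edgeR adjusted p = 2.88e-12 and 2.49e-12). MAFF, a small MAF factor, was higher by 1.33 ± 0.16 and 1.16 ± 0.16 (edgeR adjusted p = 8.58e-07 and 6.53e-06). NR4A1, an orphan nuclear receptor, fell by 0.65 and 0.79 (SE 0.15 each, edgeR adjusted p = 0.00143 and 0.000289), and KLF9 by 0.55 and 0.35 (SE 0.08 each, edgeR adjusted p = 5.78e-06 and 0.000922), under temozolomide and DMSO in that order. With temozolomide 0 of 36 were higher and 11 lower in knockdown cells, and 3 higher and 12 lower in control cells; PLK2 fell by 0.55 and 0.51 in knockdown and control cells (SE 0.03 each, edgeR adjusted p = 3.16e-10 and 9.98e-10). Over all genes, too, more were lower than higher with temozolomide under TMM scaling (13.2% and 9.05% in knockdown cells, 15.8% and 11.7% in control cells). Of the list, 30.6% and 33.3% were lower in knockdown and control cells. With library totals and in the FPKM fits, more of all genes were higher than lower with temozolomide. On log2(FPKM + 1), 1355 were higher and 693 lower in knockdown cells, and 1738 and 924 in control cells.

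The other bZIP genes, 24 tested, were called higher and lower in equal number with knockdown (7 and 7 under temozolomide, 5 and 5 under DMSO). CREB5 was higher by 0.61 ± 0.07 and 0.57 ± 0.08 (edgeR adjusted p = 9.06e-07 and 3.22e-06), and CEBPG fell by 0.42 and 0.41 (SE 0.04 each, edgeR adjusted p = 9.81e-08 and 1.41e-07), under temozolomide and DMSO. With temozolomide 0 rose and 2 fell in knockdown cells, and 1 rose and 3 fell in control cells. These were 0% and 8.33%, and 4.17% and 12.5%, beside 9.05% and 13.2%, and 11.7% and 15.8%, of all genes. Among 45 upstream kinases and ternary complex factors, 13 were higher and 9 lower with knockdown under temozolomide and 12 higher and 11 lower under DMSO, with medians of 0.03 and 0.01. Their shares, 28.9% and 20% under temozolomide and 26.7% and 24.4% under DMSO, lie near those over all genes (22.0% and 20.3%, and 21.1% and 21.4%). For the other bZIP genes the share was 29.2% in each direction under temozolomide and 20.8% under DMSO. EGFR, a receptor whose signalling feeds the ERK cascade, was higher by 0.44 ± 0.04 and 0.37 ± 0.04 (edgeR adjusted p = 2.88e-09 and 3.18e-08), and RPS6KA2, a kinase downstream of ERK, fell by 0.58 under either treatment (SE 0.04, edgeR adjusted p = 8.90e-10 and 7.83e-10). With temozolomide 3 of the 45 were higher and 3 lower in knockdown cells, and 6 higher and 8 lower in control cells. These were 6.67% and 6.67%, and 13.3% and 17.8%, beside 9.05% and 13.2%, and 11.7% and 15.8%, of all genes.

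Genes that end the response (phosphatases, RNA decay factors and corepressors), 31 tested, had 9 higher and 7 lower with knockdown under temozolomide. Knockdown under DMSO gave 9 higher and 6 lower. The share higher was 29.03% under either treatment, beside 22.0% and 21.1% of all genes under temozolomide and DMSO. The shares lower were 22.6% and 19.4%, beside 20.3% and 21.4% of all genes. The phosphatases of MAP kinases DUSP5 (1.13 ± 0.10 and 0.98 ± 0.10, edgeR adjusted p = 1.66e-08 and 1.38e-07) and DUSP6 (0.95 ± 0.09 and 0.78 ± 0.09, edgeR adjusted p = 1.92e-08 and 5.96e-07) were higher under temozolomide and DMSO. ZFP36L1, which directs decay of AU-rich RNAs, fell by 0.54 and 0.53 (SE 0.05 each, edgeR adjusted p = 6.36e-08 and 4.75e-08), and with temozolomide by 0.35 in both knockdown and control cells (SE 0.05 each, edgeR adjusted p = 7.56e-05 and 3.35e-05). With temozolomide 1 of the 31 was higher and 6 lower in knockdown cells, and 2 higher and 5 lower in control cells. These were 3.23% and 19.4%, and 6.45% and 16.1%, beside 9.05% and 13.2%, and 11.7% and 15.8%, of all genes. Handling of cells can raise immediate-early RNA. Of 13 heat shock genes 7 were higher and 2 lower with knockdown under temozolomide, and 6 higher and 2 lower under DMSO. These were 53.8% and 15.4%, and 46.2% and 15.4%, beside 22.0% and 20.3%, and 21.1% and 21.4%, of all genes. With temozolomide 1 was higher and 4 lower in knockdown cells, and 3 higher and 3 lower in control cells. These were 7.69% and 30.8%, and 23.1% and 23.1%, beside 9.05% and 13.2%, and 11.7% and 15.8%, of all genes. HSPB1 was higher by 0.36 ± 0.06 and 0.27 ± 0.06 with knockdown under temozolomide and DMSO (edgeR adjusted p = 5.45e-05 and 0.000909). The part of handling in the members' values was not tested.

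**Figure D4:**
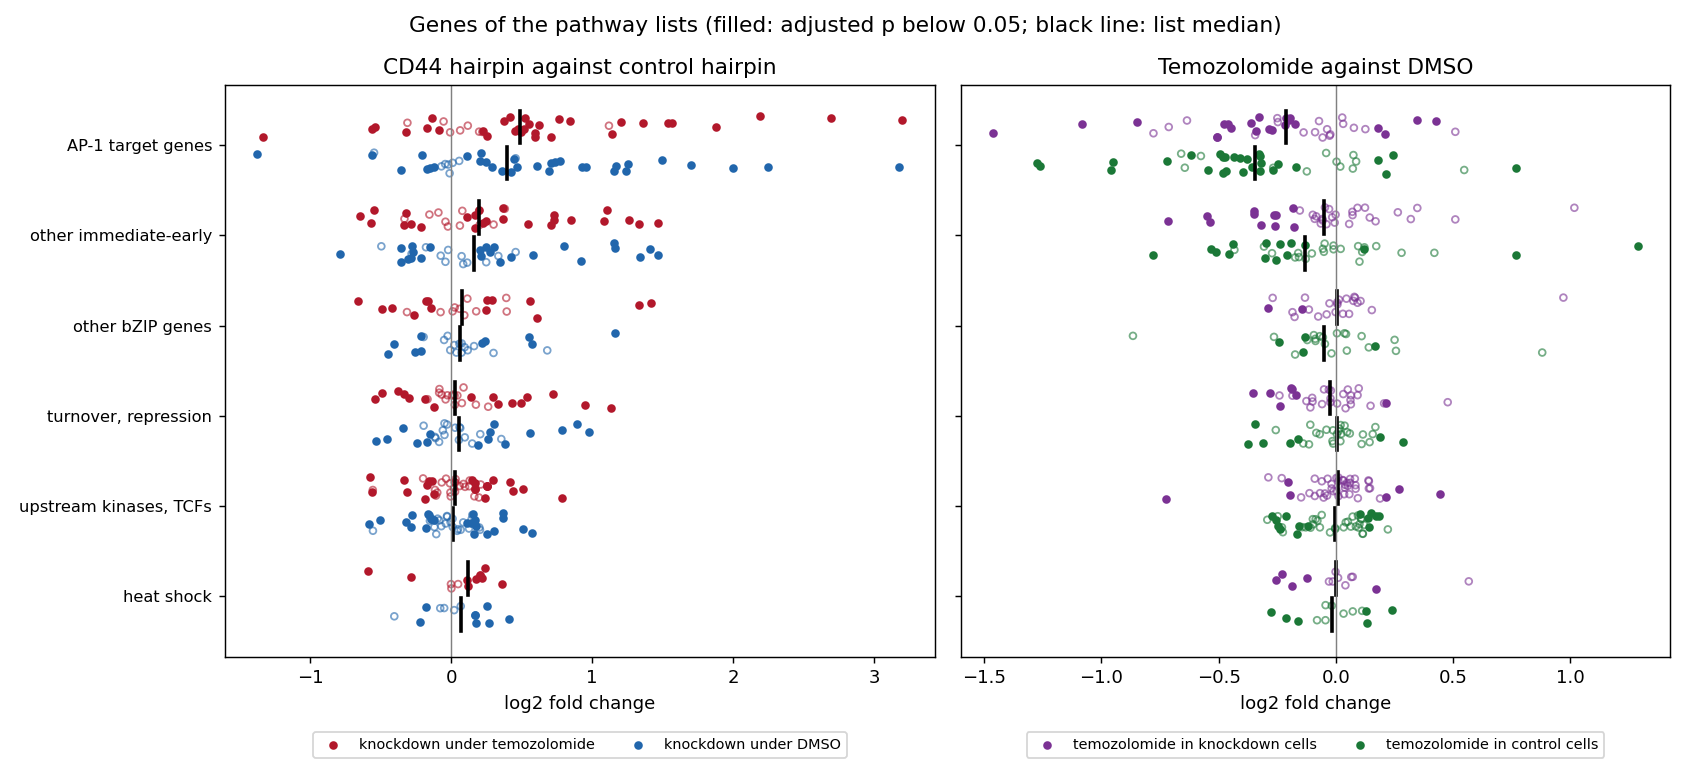
Log2 fold changes of every tested gene of the 6 pathway lists, knockdown against control on the left and temozolomide against DMSO on the right; filled points passed the test (adjusted p below 0.05) and the black line is the list's median. AP-1 target genes have medians of 0.49 and 0.39 with knockdown under temozolomide and DMSO, and of -0.21 and -0.34 with temozolomide in knockdown and control cells.

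The genes whose log2 CPM, centred on the mean of the 12 libraries, ran closest to each member were found by the root mean square difference over those 12 libraries. Closest to FOSL1 were AXL (0.12) and CCN2 (0.13), where FOSL1 itself had an SD of 0.74 over the libraries. Closest to FOSL2 were KRT8 (0.04) and SERTAD4 (0.05), with an SD of 0.33 for FOSL2. Closest to ATF3 were SCML2 (0.11) and CAPRIN2 (0.12), with an SD of 0.46, and closest to EGR1 were REEP1 (0.17) and BSN (0.21), with an SD of 0.55. The points of such a comparison share libraries and depth, and it is a description with no test.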

How the data were processed

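Poly(A) RNA of U251 cells was sequenced in 12 libraries, grouped by the labels; NC columns with temozolomide were taken as control hairpin. The authors deposited estimated counts per gene (10.7% to 12.0% of values per library are fractional), and a second deposited table of FPKM. According to the submitters' processing notes, the tools were HISAT2, RSEM, StringTie 1.3.1, Bowtie2 2.2.8 and fastp 0.18.0. The part of each, the genome build and the annotation are not given in the sources. Coordinates are from GENCODE 29 on GRCh38, matched by gene ID.

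Rounded counts were fitted with edgeR 4.0.16 in R 4.3.3 (filterByExpr, which kept 12821 of 20289 genes, TMM scaling, quasi-likelihood fit with 4 group means over all 12 libraries, biological coefficient of variation 3.90%). Benjamini-Hochberg adjustment ran over all genes tested in each of 6 comparisons. SE is the log2 fold change divided by the square root of F. CPM uses TMM-scaled totals. Intervals and floors cover counting error and the spread between libraries only. The procedure was tested on simulated data. No replicates of a group agreed within sampling noise (chi-square per degree of freedom 2.14 to 5.06).

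The members and the gene lists were chosen with earlier results of these data known, so no list is independent evidence. Named are all members, CD44, markers, and up to 3 called list genes per direction and comparison with the largest change, at least 5 CPM on average in the higher of the groups compared and no overlap between groups (no such condition for the difference); the text gives part of these, and some genes are not reported here. Alternatives were relative log expression factors, library totals, DESeq2 1.42.0, other count filters, a replicate block, a fit to only the groups compared, GC splines, limma 3.58.1 on log2(FPKM + 1), on log2(FPKM + 0.1) and on unfiltered FPKM, a threshold of 0.01, and leaving out each library.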

Additional observations from a re-analysis of the deposited data

How the results depend on the processing

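No called result of a member or a named list gene reversed its direction under any alternative run. Over the members' results, leaving out a library kept a called result in 351 cases, ended it in 33 and added a call to an uncalled one in 3, and the other settings kept 385, ended 31 and added 8; for the named list genes the numbers kept and ended were 1848 and 60, and 1928 and 135. Members higher with temozolomide in knockdown cells numbered 1 with DESeq2, on log2(FPKM + 1), filtered or not, and at 0.01. Of all genes these settings called 746, 1355 (filtered), 1211 (unfiltered) and 504 higher. Members lower numbered 1 in the 3 FPKM fits, which called 693 (+ 1), 677 (+ 0.1) and 664 (unfiltered) of all genes lower. The genes tested numbered 12821, and 17130 in the unfiltered fit. Members lower in the difference numbered 1 with no low-count filter, against 359 of 17113 genes. At 0.01, 3 members were higher with knockdown under DMSO and 1 lower under temozolomide, against 1992 and 1891 of 12821 genes. Without a library, the counts ran from 3 to 5 (higher, knockdown under DMSO) and 1 to 2 (lower, knockdown under temozolomide). They ran from 1 to 3 (higher, temozolomide in knockdown cells) and 0 to 1 (each direction of the difference). Over all 12915 to 12956 genes tested there, the same counts were 2352 to 2733, 2250 to 2738 and 733 to 1186. In the difference 5 to 210 genes were higher and 13 to 212 lower.

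AP-1 target genes higher with temozolomide in control cells numbered 8 with library totals, 2 at 0.01 and 2 to 4 without a library (fewest without control temozolomide or control DMSO replicate 1), and in knockdown cells 2 at 0.01 and 2 to 5 without a library (fewest without knockdown DMSO replicate 2). Of all genes, these settings called 2870, 812 and 1071 to 1537 higher in control cells, and 504 and 733 to 1186 in knockdown cells. Other immediate-early genes higher with temozolomide in knockdown cells numbered 6 with library totals, 1 with the stricter filter, 2 with GC correction, 1, 1 and 2 in the FPKM fits (+ 1, + 0.1, unfiltered) and 0 to 1 without a library. All genes called higher there numbered 2533, 1200, 1618, 1355, 1311, 1211 and 733 to 1186, against 1160 with TMM. Those of the list called lower numbered 6, 6 and 5 in the FPKM fits, 7 at 0.01 and 7 to 11 without a library (fewest without knockdown temozolomide replicate 2). All genes called lower there numbered 693, 677, 664, 1074 and 1320 to 1845. In control cells 7 of the list were lower in the unfiltered FPKM fit and 1 higher at 0.01, against 835 of 17130 and 812 of 12821 genes. The cause was not tested. With library totals alone the median log2 fold change over all genes was 0.04 to 0.07 in the 4 comparisons of knockdown or temozolomide and 0.12 with both against neither, against 0.01 with TMM in that comparison. With CPM per kilobase of the longest transcript, chosen after seeing the data, the FOSL1 share in control cells under temozolomide was 18.2%.

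Each gene's group mean was subtracted from its log2 CPM, and the remaining deviations were correlated between libraries. These deviations correlated at -0.077 to 0.136 over 18 pairs of same-numbered libraries from different groups. For 6 of 12 libraries the mean correlation with the other groups was highest for their own number. Whether the replicate numbers pair libraries was not tested. With the replicate number as a block, members called numbered 6 higher and 2 lower with knockdown under temozolomide, and 5 and 3 under DMSO. All genes called there were 2860 and 2623, and 2749 and 2793, of 12821. With temozolomide 2 members were higher and 2 lower in knockdown cells (1222 and 1750 of all genes), and 2 and 4 in control cells (1580 and 2089). Both against neither gave 4 and 2 (3292 and 3192 of all genes), and the difference 0 and 0 (103 and 119). With the block and GC correction, 1 member was lower in the difference, against 25 of 12782 genes. Other immediate-early genes higher with temozolomide then numbered 1 in knockdown and 5 in control cells, against 1655 and 1418 of all genes. Depth limits FOS, FOSB and EGR1 most.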

Other observations

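Among the closest in pattern to JUN over the 12 libraries were TSR1 and NF2 (root mean square difference of centred log2 CPM 0.06 each), to JUNB BIN1 (0.07), to JUND DNAL4 (0.06) and C17orf49 (0.08), and to IER2 PKMYT1 (0.06) and PCBP1 (0.07). For FOS they were GPR153 (0.20) and IRF5 (0.21), and for FOSB GDPD5 (0.18) and KCNMB4 (0.20), at the low counts of these members. Of the members, FOSL2 and JUND were among the 1809 genes called lower with knockdown under both treatments (69.5% of those lower under temozolomide and 65.8% of those lower under DMSO), and FOSL2 and JUN among the 1099 called lower with temozolomide in both kinds of cell (64.9% of those in knockdown cells and 54.3% of those in control cells).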
